A study of Mus musculus with 4 samples.

Results

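The genes described here are the CCN matricellular genes Ccn1 to Ccn5 together with Ankrd1 and Amotl2, which are transcribed under the Hippo pathway coactivators, and with Yap1, Wwtr1 and Tead1, which encode those coactivators and a DNA-binding partner. These 10 genes, of 32286 in the deposited matrices, were chosen by symbol after earlier results of the same data were known, so their own levels and ratios are given as description and without a test. Cells sorted for tdTomato were profiled by single-cell RNA-seq from mouse spine, with 1 library for each combination of label (control or mutant) and age (3 or 12-16 months). The control label stands for the genotype Prss56Cre/+ with R26tdTom/tdTom and Nf1+/+, and the mutant label for Prss56Cre/Cre with R26tdTom/tdTom and Nf1fl/fl. All 4 groups therefore carry the tdTomato reporter and Cre from the Prss56 locus, which marks cells derived from the boundary caps of the embryonic nervous system. The libraries labelled control carry 1 Cre allele and those labelled mutant 2, so the number of Cre alleles and the loss of Nf1 cannot be told apart. Vertebrae with visible tdTomato signal were selected before digestion, and cells positive for CD11b, CD31 or CD45 and dead cells were discarded in the sort.

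CCN proteins are secreted into the extracellular matrix, where they bind integrins, proteoglycans and growth factors and act as signals between matrix and cell. Ccn1 (also named Cyr61) and Ccn2 (also named Ctgf) are the best known targets of the coactivators YAP, encoded by Yap1, and TAZ, encoded by Wwtr1. When the Hippo kinases are inactive, or when cells sense stiff matrix and spread, YAP and TAZ enter the nucleus and bind TEAD factors, which recognise a short element around GGAATG. In cartilage, Ccn2 is known for its role in growth plate chondrocytes and their hypertrophy, and Ccn4 and Ccn5 were first described as genes induced by WNT signalling.

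The upstream sequences of a CCN target and of a Hippo regulator are shown because the findings turn on genes read as YAP and TAZ targets, and these sequences hold the letters that TEAD factors recognise. Each is the 250 bases before the transcription start, from RefSeq on GRCm38.p6, with the TEAD core in capitals. The Ccn1 sequence lies at chr3:145649986-145650235 on the minus strand and that of Amotl2 at chr9:102717554-102717803 on the plus strand. The RefSeq start used for Amotl2 lies downstream of the start of its annotated gene, at 102716672. The printed bases of Amotl2 therefore fall within the gene as its coordinates are given below.
Ccn1: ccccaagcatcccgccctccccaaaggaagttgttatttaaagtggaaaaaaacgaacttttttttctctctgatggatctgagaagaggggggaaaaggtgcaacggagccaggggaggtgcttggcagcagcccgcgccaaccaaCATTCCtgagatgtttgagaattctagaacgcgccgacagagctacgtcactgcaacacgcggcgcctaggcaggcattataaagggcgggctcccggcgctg
Amotl2: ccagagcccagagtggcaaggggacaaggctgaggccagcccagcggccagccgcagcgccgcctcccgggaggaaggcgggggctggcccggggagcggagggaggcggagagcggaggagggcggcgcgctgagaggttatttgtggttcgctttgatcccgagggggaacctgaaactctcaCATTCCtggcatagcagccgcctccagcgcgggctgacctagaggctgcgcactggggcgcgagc
In both, the core reads in its reverse complement, CATTCC, at 103 to 98 bases before the start in Ccn1 and at 65 to 60 bases before it in Amotl2. Promoters were matched for 5 of the 10 genes (Ccn1, Ankrd1, Amotl2, Yap1 and Wwtr1), each taken as 250 bases before to 50 bases after the start. GGAATG on either strand was present in all 5, against 14.7% of 32851 promoters of the same length. The genes were chosen as targets or parts of the pathway that this element serves, so that count is a description with no test. The AP-1 element TGANTCA, present in 7.81% of all promoters, and the serum response CArG box, present in 1.63%, were found in 0 of the 5. A match of these letters is a description of sequence and not evidence of a bound factor.

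After filtering, 1757 cells were left, with 717 cells in the 3-month control library, 484 in the 3-month mutant, 135 in the 12-16-month control and 421 in the 12-16-month mutant. This order is kept wherever 4 values are given. A library held 2154537 to 9429264 UMIs (unique molecular identifiers). Median depth was 8189 to 12644 UMIs a cell, and no cell barcode was shared between libraries. Nf1 was measured at 131, 149.7, 147 and 125 CPM (UMIs of the gene over all UMIs of the same cells, scaled to a common total) in the 4 libraries. Tags from the 3′ end need not fall in the deleted part, so these Nf1 values check nothing about recombination, and libraries are referred to by their labels. Y-linked genes had 210, 5, 122 and 216 UMIs. Cells with a Y-linked UMI and no Xist numbered 61, 0, 23 and 69, and cells with Xist and no Y-linked UMI 572, 466, 93 and 291, so the 3-month mutant library showed no male cells and was compared with a control library that held both sexes. With 1 library per condition, no difference between labels within an age had a replicate, and no test was made; a fit of label and age over the 4 libraries, with 1 residual degree of freedom, was not run. The 95% intervals given are exact Poisson intervals for levels and exact conditional binomial intervals for ratios, and they cover counting error of the summed UMIs only. Spread between cells and between mice is outside them, and the mice behind a library and its label cannot be told apart. An interval that does not hold 1 is therefore not a test of a difference.

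Genes were followed in cells gated on genes that are not among the 10. Endplate cells had at least 1 UMI of Sox9 and 3 of Zfp804b and Dab1 together, other cartilage cells had Sox9 with at least 3 UMIs of Acan, and bone and stroma cells had at most 2 UMIs of Acan with Runx2. The endplate gate held 30, 142, 12 and 38 cells, the other cartilage gate 532, 235, 78 and 220, and the bone and stroma gate 45, 39, 26 and 83. Cartilage markers (Col2a1, Comp, Matn3, Hapln1, Col9a1) were all present in both cartilage gates. Kcnd2, which the gate did not use, was at 69.3, 341, 144 and 1054 CPM in endplate cells against 2.75, 16.0, 2.01 and 71.9 CPM in other cartilage. It was listed with Zfp804b and Dab1 when earlier results of these data were known, so it is no independent check of the gate. Its level was higher under the mutant label at both ages in both gates. The endplate gate took 4.18%, 29.3%, 8.89% and 9.03% of the passing cells of the 4 libraries. Kcnd2 and the gate genes Zfp804b and Dab1 summed to 811, 2195, 424 and 1642 CPM in these endplate cells. That sum was higher under the mutant label at both ages. Whether the gate took like cells under both labels was not tested. The bone and stroma gate was uneven. In the 3-month mutant library, 23 of its 39 cells carried the blood cell marker Ptprc without Sox9, although CD45, its product, was used to discard cells in the sort. The counts were 1 of 45 in the 3-month control library and 2 of 26 and 7 of 83 in the older control and mutant libraries. The summed level of 6 bone markers there was 8190 CPM in the 3-month mutant library and 43002 to 137723 CPM in the other 3. Blood markers stood at 0 to 2.4 CPM in the cartilage gates of all 4 libraries.

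In cartilage of the 3-month libraries, Ccn2 was the CCN gene that differed past 2-fold between labels in both gates. It was 2.59-fold higher in endplate cells and 2.37-fold higher in other cartilage cells of the library labelled mutant. Ccn1 was 1.99-fold higher in other cartilage but not in endplate cells, and Wwtr1 and Tead1 were higher in other cartilage of the library labelled mutant at both ages. Ccn4 and Ccn5 were transcripts of bone and stroma, and Ccn3 was seen in other cartilage and mural cells. Ankrd1 was not detected in any library. The ratios of all members are drawn in the plot of ratios by gate.

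**Figure D1:**
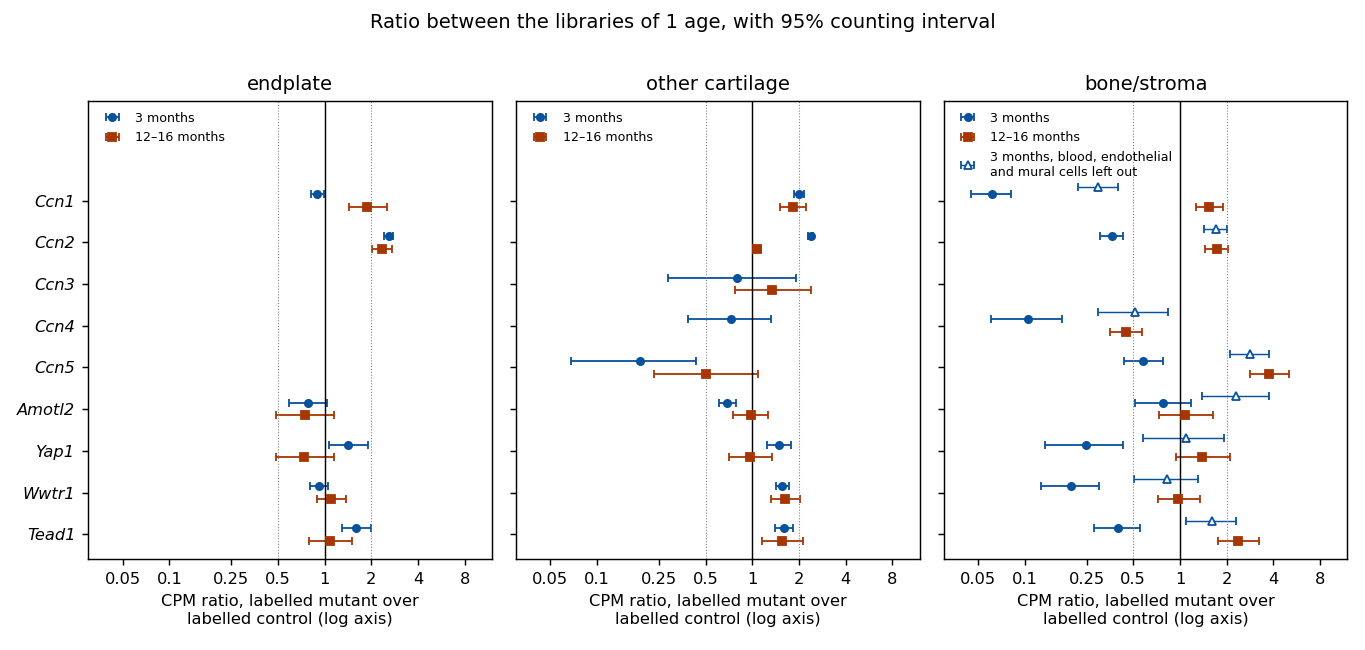
CPM ratio of the library labelled mutant over the library labelled control (horizontal log axis) for every gene that reached 20 UMIs over the pair, in 3 gates and at 2 ages; bars are 95% counting intervals, dotted lines mark 2-fold, and open triangles give the 3-month bone and stroma ratio without blood, endothelial and mural cells. Ccn2 lies past 2-fold in endplate cells at both ages, and in the 3-month bone and stroma gate it changes side of 1 when cells of other types are left out.

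A gene was counted as called when its CPM differed at least 2-fold with at least 20 UMIs over the pair of libraries. In endplate cells at 3 months, 1 of 6 members tested (Ccn2) was called higher and 0 lower, where 10.8% of all genes tested were higher and 6.07% lower. At 12-16 months it was again 1 of 6 (Ccn2) higher and 0 lower, against 9.35% and 5.49% of all genes. In other cartilage at 3 months, 1 of 9 members was higher (Ccn2) and 1 lower (Ccn5), against 4.68% higher and 5.22% lower over all genes. At 12-16 months 0 of 8 members were called in either direction, against 4.68% higher and 4.03% lower. Bone and stroma at 3 months had 6 of 8 members lower (Ccn1, Ccn2, Ccn4, Yap1, Wwtr1 and Tead1) and 0 higher, where 12.2% of all genes were lower and 23.9% higher. That count changed with the cells of other types in the gate: without blood, endothelial and mural cells 1 member was lower (Ccn1, a ratio of 0.298) and 2 were higher (Ccn5, 2.81, and Amotl2, 2.29). The share of all genes called without those cells was not counted. At 12-16 months 2 of 8 were higher (Ccn5 and Tead1) and 1 lower (Ccn4), against 14.9% and 3.36%. The members' median log2 ratios were 0.19 and 0.13 in endplate cells, 0.57 and 0.26 in other cartilage and -1.74 and 0.55 in bone and stroma, at 3 and at 12-16 months, while the medians over all genes tested were 0.03, 0.03, -0.00, -0.03, 0.31 and 0.31. These medians hold only members that passed the filter on counts. The members' shares at 2-fold were small counts and rest mostly on Ccn2 in cartilage, and the distribution of all genes behind them is drawn in the histogram of log2 ratios.

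**Figure D2:**
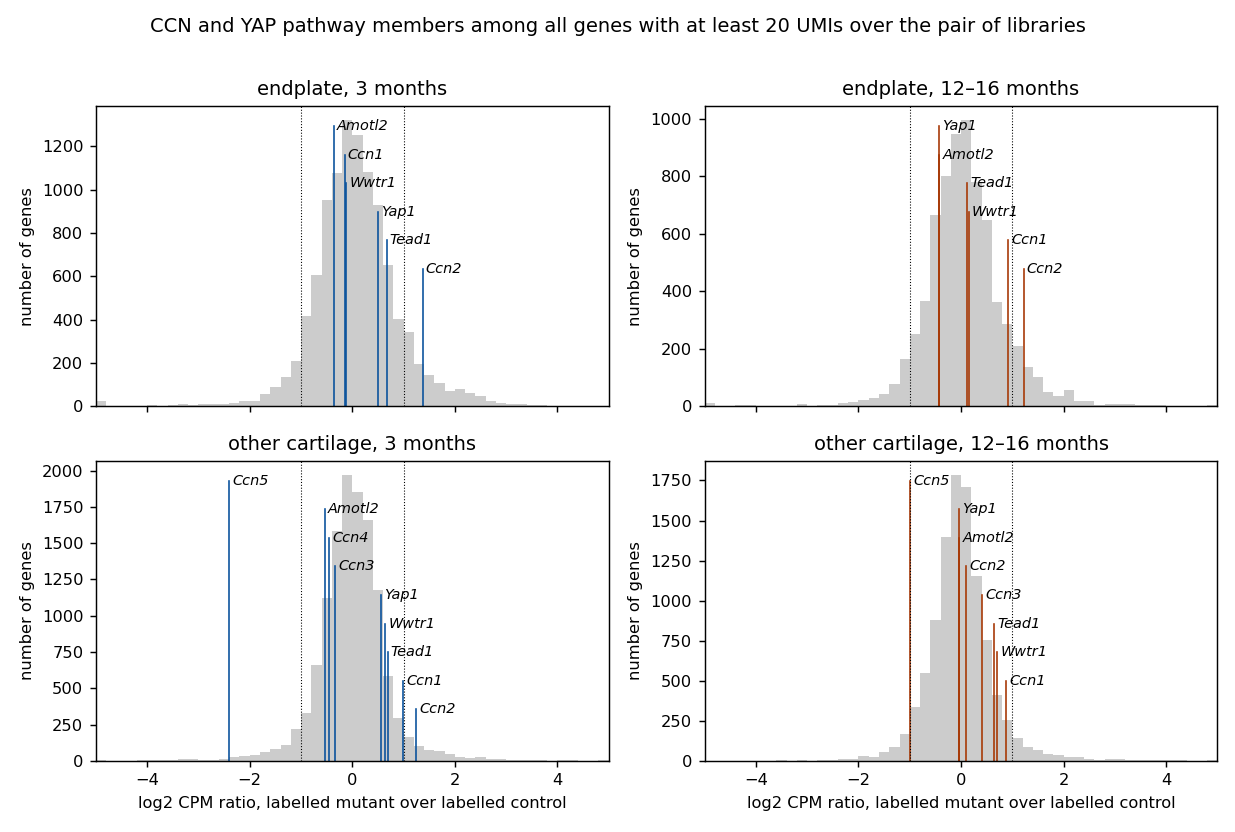
Histograms of the log2 CPM ratio, labelled mutant over labelled control, of all genes with at least 20 UMIs over the pair of libraries (vertical axis, number of genes) in the endplate and other cartilage gates at 3 and at 12-16 months, with the members marked by vertical lines. Ccn2 stands to the right of the bulk of genes in 3 of the 4 panels and near 0 in other cartilage at 12-16 months.

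Ccn2 lies at chr10:24595442-24598683 (GRCm38, plus strand). In endplate cells it was at 1448 CPM (1355 to 1546) in the 3-month control library, 3753 CPM (3681 to 3826) in the 3-month mutant, 622 CPM (540.0 to 713) in the 12-16-month control and 1452 CPM (1367 to 1541) in the 12-16-month mutant. The library labelled mutant was the higher at each age, by 2.59-fold (2.42 to 2.78) at 3 months and by 2.33-fold (2.01 to 2.72) at 12-16 months. By rank of the log2 ratio from the top, Ccn2 was number 610 of 10451 genes at 3 months and number 442 of 7173 at 12-16 months. The levels at 12-16 months were below those at 3 months under both labels, 2.33-fold lower in the control libraries and 2.59-fold lower in the mutant ones.

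In other cartilage, Ccn2 stood at 1117 CPM (1094 to 1141) in the 3-month control library and 2653 CPM (2596 to 2711) in the 3-month mutant. At 12-16 months the control library had 1989 CPM (1902 to 2079) and the mutant 2141 CPM (2079 to 2204). The 3-month ratio was 2.37 (2.30 to 2.45) and the 12-16-month ratio 1.08 (1.02 to 1.14), and the rank went from 386 of 12471 genes to 3825 of 10099. Between 3 and 12-16 months the gene was 1.78-fold higher in the control libraries and 1.24-fold lower in the mutant ones, so the older control library came close to the mutant level. Within a library, endplate cells exceeded other cartilage in Ccn2 at 3 months (1.30-fold in the control, 1.41-fold in the mutant) and were below it at 12-16 months (3.20-fold and 1.47-fold lower). In the 3-month control library that order was lost with cells weighted equally (log2 ratio of -0.011). The endplate cells of that library without a UMI of the hypertrophic chondrocyte genes Col10a1 or Ihh were at 357 CPM, below all other cartilage cells. The other cartilage gate kept its own cells with such a UMI, 107 of 532, so the sets compared are unlike.

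**Figure D3:**
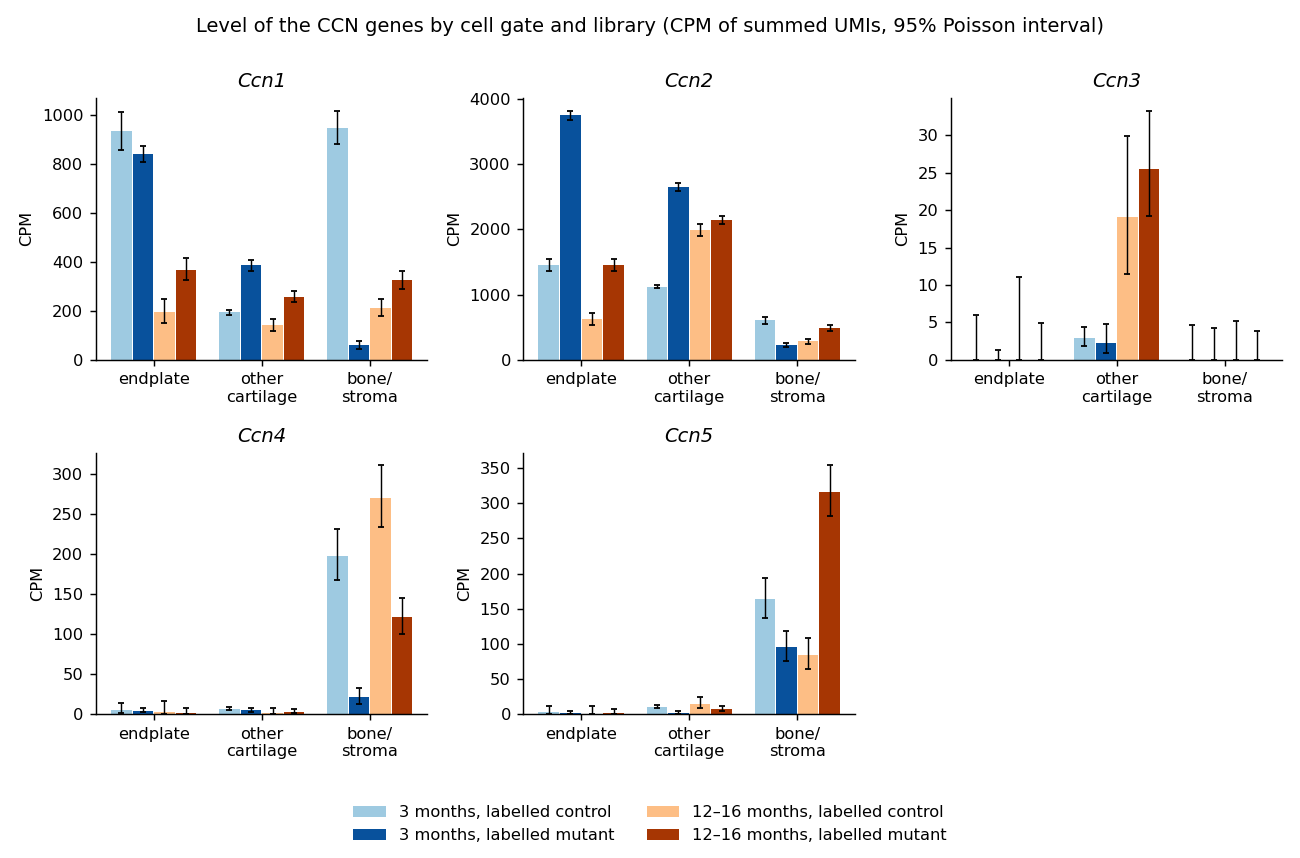
CPM of summed UMIs (vertical axis, from 0) of the CCN genes in the endplate, other cartilage and bone and stroma gates, 1 bar for each of the 4 libraries, with 95% Poisson intervals. Ccn1 and Ccn2 are found in all 3 gates, Ccn4 and Ccn5 mainly in bone and stroma, and Ccn3 only in other cartilage among these gates.

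The Ccn2 values were carried unevenly by cells. The endplate gate included cells with a UMI of the hypertrophic chondrocyte genes Col10a1 or Ihh, which numbered 6 of 30, 35 of 142, 1 of 12 and 10 of 38. In the 3-month control library these 6 cells held 757 of the 898 Ccn2 UMIs, or 84.3%, with 291 in the highest cell. Their Ccn2 level was 3361 CPM, against 357 CPM in the 24 other endplate cells of that library. In the 3-month mutant library the corresponding levels were 5403 CPM and 3085 CPM. At 3 months Ccn2 was thus present in most endplate cells of the library labelled mutant, hypertrophic genes or not, while in the control library most of its UMIs came from cells with hypertrophic genes. The 12-16-month control library differed: its 1 cell with hypertrophic genes held 4 of 207 Ccn2 UMIs, at 181 CPM against 653 CPM in the other 11 cells. Without the Col10a1 or Ihh cells, the 3-month ratio between labels was 8.64 (7.31 to 10.3) and the 12-16-month ratio 1.86 (1.58 to 2.18), the second no longer past 2-fold. In the 3-month control library, 1 cell held 61 of the 141 Ccn2 UMIs of this subset. This subset was chosen after seeing the data.

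The share of cells with a Ccn2 UMI gave the same order at 3 months. It was 46.7% of endplate cells in the control library and 92.3% in the mutant, or 40.0% and 87.3% after each cell was thinned to 3000 UMIs. At 12-16 months the unthinned shares were 83.3% and 68.4%, and the thinned shares 49.3% and 60.3%, so the order turned with depth. In other cartilage the thinned shares were 51.0%, 73.4%, 56.0% and 70.8% (67.9%, 83.4%, 73.1% and 79.5% unthinned). Blood cells, which should lack the gene, had a Ccn2 UMI in 11.9% of 42 cells of the 3-month mutant library (2.4% thinned) at a median depth of 12018.5 UMIs, against 17605.5 UMIs in its endplate cells. In the 12-16-month mutant library 0 of 30 blood cells had a Ccn2 UMI, which allows a share of up to 10.0%.

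**Figure D4:**
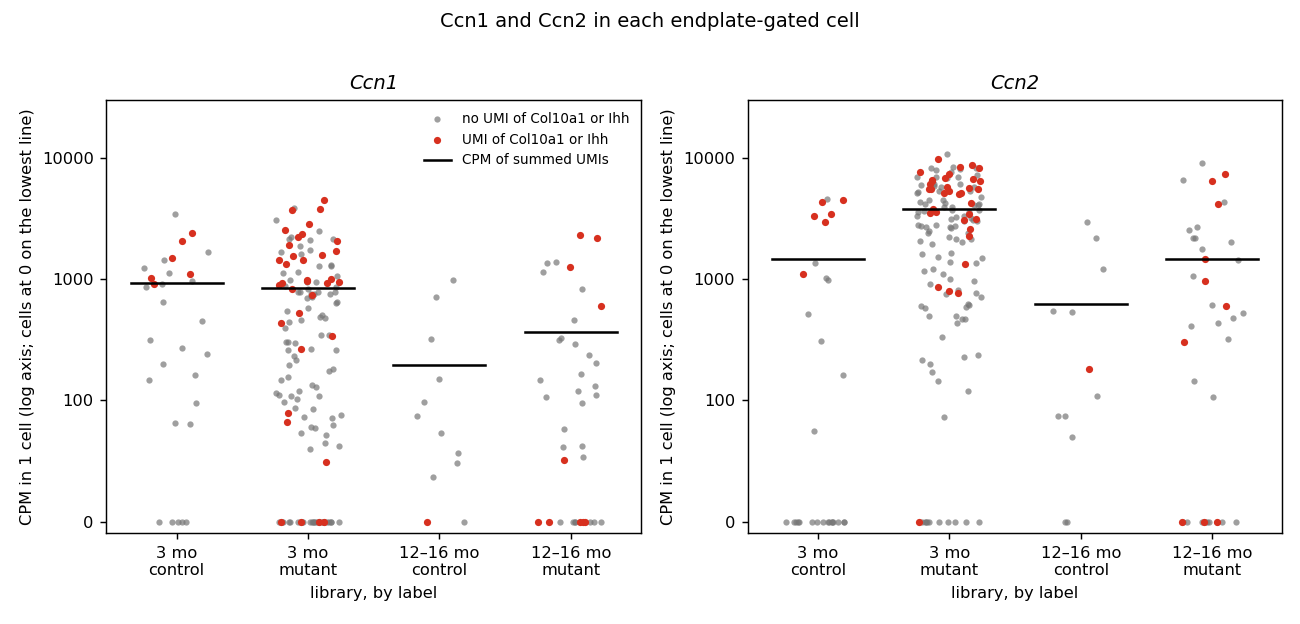
Ccn1 and Ccn2 level of each endplate-gated cell (vertical log axis, CPM in 1 cell, cells at 0 drawn on the lowest line) in the 4 libraries, with cells that hold a UMI of Col10a1 or Ihh in red and the CPM of summed UMIs as a black line. In the 3-month control library most cells without Col10a1 or Ihh lie at 0 for Ccn2, and in the 3-month mutant library most lie above 100 CPM.

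Other cartilage was divided by subsets that were also chosen after seeing the data, with Prg4 (lubricin, of surface and fibrous cartilage), Chrdl2 and Sfrp5. It was not divided by Col10a1 or Ihh. Cells with a UMI of these genes numbered 107 of 532, 42 of 235, 17 of 78 and 66 of 220 there. The hypertrophic markers Col10a1, Ihh and Pth1r summed to 450, 1026, 231 and 1515 CPM, higher under the mutant label at both ages. The part of such cells in the Ccn2 ratios of this gate was not tested. Cells were placed by any UMI of the gene, without correction for ambient RNA, so a subset need not be a single kind of cell. The subsets overlap, as a cell could be in several. In the 3-month control library 447, 251 and 204 of the 532 cells had a UMI of Prg4, Chrdl2 and Sfrp5. A Prg4 UMI was found in 26.2% and 33.3% of blood cells of the 3-month and 12-16-month mutant libraries. The control libraries had 0%, of 13 and 2 blood cells. In other cartilage the shares were 84.0%, 75.7%, 84.6% and 82.3%. The part of ambient RNA and depth in these subsets was not tested. For Ccn2 at 3 months the ratio was 3.49 (3.25 to 3.74) in cells without Prg4, 1.99 (1.92 to 2.06) in cells with Prg4, 1.98 with Chrdl2 and 1.95 with Sfrp5, all above 1. At 12-16 months the ratios were 1.68, 1.03, 1.68 and 2.13 in the same order, although that of all other cartilage cells was 1.08. Cells with Xist and no Y-linked UMI numbered 434, 230, 55 and 169 in the other cartilage gate. In these alone, Ccn2 was 2.83-fold higher (2.74 to 2.93) in the library labelled mutant at 3 months, while at 12-16 months the ratio was 0.861 (0.813 to 0.912), on the other side of 1. Within the control libraries, cells with a Y-linked UMI and no Xist (52 at 3 months, 14 at 12-16 months) differed in Ccn2 from the Xist cells by at least as much as the labels did in the whole gate, and in opposite directions at the 2 ages. They were at 2334 against 933 CPM at 3 months, 2.50-fold higher (2.37 to 2.64), and at 512 against 2374 CPM at 12-16 months, 4.64-fold lower (3.82 to 5.68). In the 12-16-month mutant library the 2 levels were 1923 and 2044 CPM. The 3-month control cells with Y-linked UMIs thus stood near the 2653 CPM of the 3-month mutant library. In endplate cells the restriction to Xist cells left ratios of 2.57 and 2.22 between labels. The part of sex and of the kinds of cartilage cell in the Ccn2 ratios was not tested.

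Ccn1 lies at chr3:145646976-145649981 (GRCm38, minus strand). In endplate cells it was at 934 CPM (859 to 1013) in the 3-month control library, 840.1 CPM (806 to 875) in the 3-month mutant, 195 CPM (151 to 249) in the 12-16-month control and 368 CPM (326 to 414) in the 12-16-month mutant. In these summed levels age separated the libraries more than label did. The control level was 4.78-fold lower (3.69 to 6.28) and the mutant level 2.28-fold lower (2.01 to 2.60) at 12-16 months. In the 3-month control library, 6 cells with Col10a1 or Ihh held 324 of the 579 Ccn1 UMIs. The 1 such cell of the 12-16-month control library held 0 of 65. Without such cells Ccn1 was at 646, 548, 209 and 261 CPM in the 4 libraries. Between labels, the 3-month ratio was 0.90 (0.82 to 0.99) and the 12-16-month ratio 1.88 (1.43 to 2.51). In the 12-16-month control library, cells with 24 and 23 UMIs held most of the 65 Ccn1 UMIs, a spread that these intervals leave out. With stricter gates, which left 7 control and 29 mutant cells, the 12-16-month ratio was 7.04. Under the mutant label the fall with age was at most 2.72-fold over 7 alternatives, stricter gates among them. In that setting the ratio between labels thus exceeded it. Without the Col10a1 or Ihh cells the 12-16-month ratio between labels was 1.25 (0.92 to 1.70), with 1 for equal levels inside its interval.

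In other cartilage Ccn1 was at 193, 385, 141 and 258 CPM, higher under the mutant label at both ages, by 1.99-fold (1.85 to 2.15) and 1.83-fold (1.52 to 2.22). At 3 months the ratio was 0.99 (0.86 to 1.14) in cells without Prg4 and 2.31 (2.11 to 2.54) in cells with it, 3.95 (3.40 to 4.58) with Chrdl2 and 1.27 (1.02 to 1.57) with Sfrp5. At 12-16 months these were 2.03, 1.38, 2.66 and 4.26. Ccn1 therefore differed by subset in another way than Ccn2, which was higher in each of these overlapping subsets at 3 months. Within a library, Ccn1 was 4.84-fold, 2.18-fold, 1.39-fold and 1.43-fold higher in endplate than in other cartilage cells. Shares of cells with a Ccn1 UMI, thinned to 3000 UMIs, were 63.4%, 56.4%, 31.6% and 38.3% in endplate cells (83.3%, 78.2%, 83.3% and 68.4% unthinned) and 22.5%, 32.8%, 14.6% and 24.5% in other cartilage (44.4%, 50.6%, 32.1% and 39.5% unthinned). Of 42 blood cells of the 3-month mutant library 0 had a Ccn1 UMI, which allows a share of up to 7.14%. Ccn1 and Ccn2 had a UMI in the same endplate cell in 12 of 30, 106 of 142, 8 of 12 and 20 of 38 cells.

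Ccn1 in bone and stroma was at 948 CPM (881 to 1018) in the 3-month control library and 58.0 CPM (43.0 to 76.5) in the 3-month mutant, a level 16.3-fold lower (12.3 to 22.2). At 12-16 months it was at 211 and 325 CPM, 1.54-fold higher (1.26 to 1.88) under the mutant label. Ccn2 there was at 604, 220.4, 280.1 and 482 CPM. Its ratio was 2.74-fold lower (2.31 to 3.26) at 3 months and 1.72-fold higher (1.45 to 2.04) at 12-16 months. The 3-month values moved with the blood cells in this gate. When cells with Ptprc or Cdh5, or with the mural genes Acta2 and Myh11, were left out, 24 of the 39 cells of the 3-month mutant library were removed, against 3 of 45 in the control. Ccn1 was then 3.35-fold lower and Ccn2 1.70-fold higher (1.42 to 2.02) under the mutant label, so the direction for Ccn2 turned. At 12-16 months the same exclusion left 1.64 for Ccn1 and 1.68 for Ccn2. With every cell weighted equally in place of summed UMIs, the ratios were 0.167 and 1.18 for Ccn1 and 0.87 and 0.996 for Ccn2, at 3 and 12-16 months.

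Ccn4 (also named Wisp1; chr15:66891320-66923201, GRCm38, plus strand) and Ccn5 (also named Wisp2; chr2:163820861-163833146, plus strand) had most of their counts in bone and stroma. In that gate Ccn4 was at 198, 20.9, 270.2 and 122 CPM, and in other cartilage it had 51, 15, 2 and 6 UMIs, or 6.67, 4.90, 2.01 and 2.84 CPM. Ccn5 was at 163, 95.1, 84.5 and 317 CPM in bone and stroma and at 10.3, 1.96, 15.1 and 7.56 CPM in other cartilage. Endplate cells held at most 12 UMIs of Ccn4 and 5 of Ccn5 in a library. Both genes were at least 2-fold higher in bone and stroma than in other cartilage in all 4 libraries, by 4.26-fold to 134-fold for Ccn4 (the latter against 2 UMIs) and 5.60-fold to 48.5-fold for Ccn5. They were the 2 of 8 members called higher there, where 6.05% of 8605 genes were higher in all 4 libraries, and 0 members were called lower, against 7.74%.

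Between labels, Ccn4 was the member called lower in bone and stroma of the library labelled mutant at both ages. The level was 9.46-fold lower (5.79 to 16.4) at 3 months and 2.22-fold lower (1.76 to 2.82) at 12-16 months, and 1.96-fold and 2.27-fold lower without cells of other types. In the 3-month mutant library, 14 of the 18 UMIs came from 1 cell, and with the highest cell of each library left out the 3-month ratio was 0.027. Ccn5 was 1.72-fold lower at 3 months and 3.75-fold higher (2.84 to 5.03) at 12-16 months. Without cells of other types it was 2.81-fold (2.10 to 3.73) and 4.07-fold (3.04 to 5.55) higher, so that the 3-month direction turned and Ccn4 and Ccn5 then went opposite ways at both ages. In the 12-16-month mutant library Ccn5 was at 435 CPM in 43 cells with Xist alone and 126 CPM in 33 with Y-linked UMIs alone. In the 12-16-month control library these levels were 86.7 and 83.7 CPM. In the Xist cells the 12-16-month ratio between labels was 5.02 (3.64 to 7.06). The part of sex in the Ccn5 values was not tested. Bone markers, whose sum was lower in the libraries labelled mutant at both ages (8190 against 80186 CPM and 43002 against 137723 CPM), moved with Ccn4, and stroma markers (Cxcl12, Lepr, Adipoq) were at 4089, 2223, 4362 and 8662 CPM; the part of this mixture in the Ccn4 and Ccn5 values was not tested. A UMI of both genes in a cell was found in 8 of 45, 2 of 39, 3 of 26 and 3 of 83 cells. In other cartilage Ccn5 was 5.28-fold lower (2.32 to 14.8) under the mutant label at 3 months, from 79 against 6 UMIs (a ratio of 0.190, or 0.633 in cells with Sfrp5), and 2.00-fold lower (0.919 to 4.31) at 12-16 months, where the interval holds 1.

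Ccn3 (also named Nov; chr15:54745702-54754039, GRCm38, plus strand) was rare. It had 0 UMIs in the endplate and in the bone and stroma gates of all 4 libraries, where 3 UMIs would be 1.08 to 9.01 CPM. In other cartilage it had 22, 7, 19 and 54 UMIs, or 2.88, 2.29, 19.1 and 25.5 CPM. Its ratios between labels were 0.79 (0.29 to 1.92) and 1.34 (0.78 to 2.39), both with intervals that hold 1. The 12-16-month libraries were higher than the 3-month ones, by 6.64-fold (3.40 to 12.9) for the control label and 11.2-fold (5.07 to 29.1) for the mutant. Cells with a UMI numbered 14 of 532, 6 of 235, 9 of 78 and 27 of 220. Mural cells, gated on Acta2 and Myh11, were 10, 19, 2 and 22 cells and held 0, 5, 0 and 16 Ccn3 UMIs. The sixth gene of the family, Ccn6 (chr10:39150970-39163794, GRCm38, minus strand), followed cartilage, at 119, 96.7, 153 and 169 CPM in endplate cells, 34.4, 40.8, 48.3 and 44.0 CPM in other cartilage and 0, 1, 2 and 0 UMIs in bone and stroma. It was 3.47-fold, 2.37-fold, 3.17-fold and 3.83-fold higher in endplate than in other cartilage cells and was not past 2-fold between labels in either.

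Ankrd1 (chr19:36111961-36120099, GRCm38, minus strand), which encodes a muscle ankyrin repeat protein and is used as a YAP readout in many cell lines, had 0 UMIs in all 4 libraries. That allows a share of cells with a UMI of up to 0.418%, 0.620%, 2.22% and 0.713%, and 3 UMIs would be 0.318 to 1.39 CPM. Amotl2 (chr9:102716672-102733418, plus strand), an angiomotin that holds YAP in the cytoplasm and is itself a YAP target, was detected throughout. In other cartilage it was at 155 CPM (146 to 164) in the 3-month control library and 107 CPM (95.5 to 119) in the 3-month mutant, 1.45-fold lower (1.28 to 1.64), and at 92.6 and 90.3 CPM at 12-16 months. In endplate cells it was at 106, 83.0, 111 and 83.0 CPM, with intervals of the ratio that held 1 at both ages. In other cartilage at 3 months Amotl2 was thus below its control level, where Ccn2 was above it. Its bone and stroma levels were 67.1, 52.2, 61.9 and 67.1 CPM, with a 3-month ratio of 0.778 that became 2.29 without cells of other types.

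The coactivators and Tead1 were expressed in each of the gates. Wwtr1 (TAZ; chr3:57455649-57575910, GRCm38, minus strand) was at 432, 397, 379 and 419 CPM in endplate cells and 138, 215, 111 and 180.1 CPM in other cartilage. In endplate cells the ratios between labels were 0.92 (0.80 to 1.06) and 1.11 (0.90 to 1.37), with intervals that hold 1. In other cartilage the ratios were 1.56 (1.42 to 1.72) and 1.63 (1.31 to 2.03), below 2-fold and above 1 at both ages. In cells without Prg4, with Prg4, with Chrdl2 and with Sfrp5 they were 1.16 (0.97 to 1.38), 1.51, 1.46 and 1.58 at 3 months. At 12-16 months they were 1.93, 1.38, 1.90 and 2.04 in the same order. Endplate cells held 3.14-fold, 1.85-fold, 3.42-fold and 2.33-fold more Wwtr1 than other cartilage of the same library. Tead1 (chr7:112679318-112906807, plus strand), the DNA-binding partner, was at 161, 256, 177 and 193 CPM in endplate cells and at 74.3, 119.9, 59.4 and 92.7 CPM in other cartilage. It was 1.59-fold (1.29 to 1.98) and 1.09-fold (0.798 to 1.498) higher under the mutant label in endplate cells and 1.61-fold (1.41 to 1.84) and 1.56-fold (1.16 to 2.12) in other cartilage, the last 3.22-fold in cells without Prg4 from 67 against 7 UMIs. With Prg4, Chrdl2 and Sfrp5 the 12-16-month ratios were 1.26, 1.25 and 1.47, with intervals that hold 1. At 3 months they were 1.67 without Prg4, 1.52 with Prg4, 1.21 with Chrdl2 and 1.18 with Sfrp5. The Chrdl2 and Sfrp5 intervals hold 1 at 3 months too. Tead1 was the 1 of 6 members called higher in endplate than in other cartilage cells in all 4 libraries, at 2.17-fold, 2.14-fold, 2.99-fold and 2.08-fold, where 3.95% of 7717 genes were higher and 4.87% lower and 0 members were called lower. With edgeR TMM factors these values were 1.74-fold, 1.86-fold, 2.53-fold and 1.74-fold. Only the 12-16-month control library was then past 2-fold, so the call in all 4 libraries was lost. Ccn3, Ccn4 and Ccn5 did not pass the filter on counts for this comparison. The count of 0 members lower in endplate cells does not cover them.

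Yap1 (chr9:7931999-8004596, GRCm38, minus strand) was at 91.9, 130.1, 108 and 80.3 CPM in endplate cells and 44.1, 65.3, 63.4 and 61.5 CPM in other cartilage. It was higher under the mutant label at 3 months, by 1.42-fold (1.07 to 1.91) in endplate cells and 1.48-fold (1.24 to 1.77) in other cartilage, and at 12-16 months the ratios were 0.74 (0.48 to 1.16) and 0.97 (0.71 to 1.33). In bone and stroma at 3 months Yap1 was 4.05-fold, Wwtr1 5.03-fold and Tead1 2.52-fold lower under the mutant label. Without cells of other types the ratios were 1.09, 0.83 and 1.60, on the other side of 1 for Yap1 and Tead1. At 12-16 months Tead1 was 2.36-fold higher (1.75 to 3.23) in that gate, while Wwtr1 was at 106 and 103 CPM and Yap1 at 56.3 and 78.4 CPM.

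**Figure D5:**
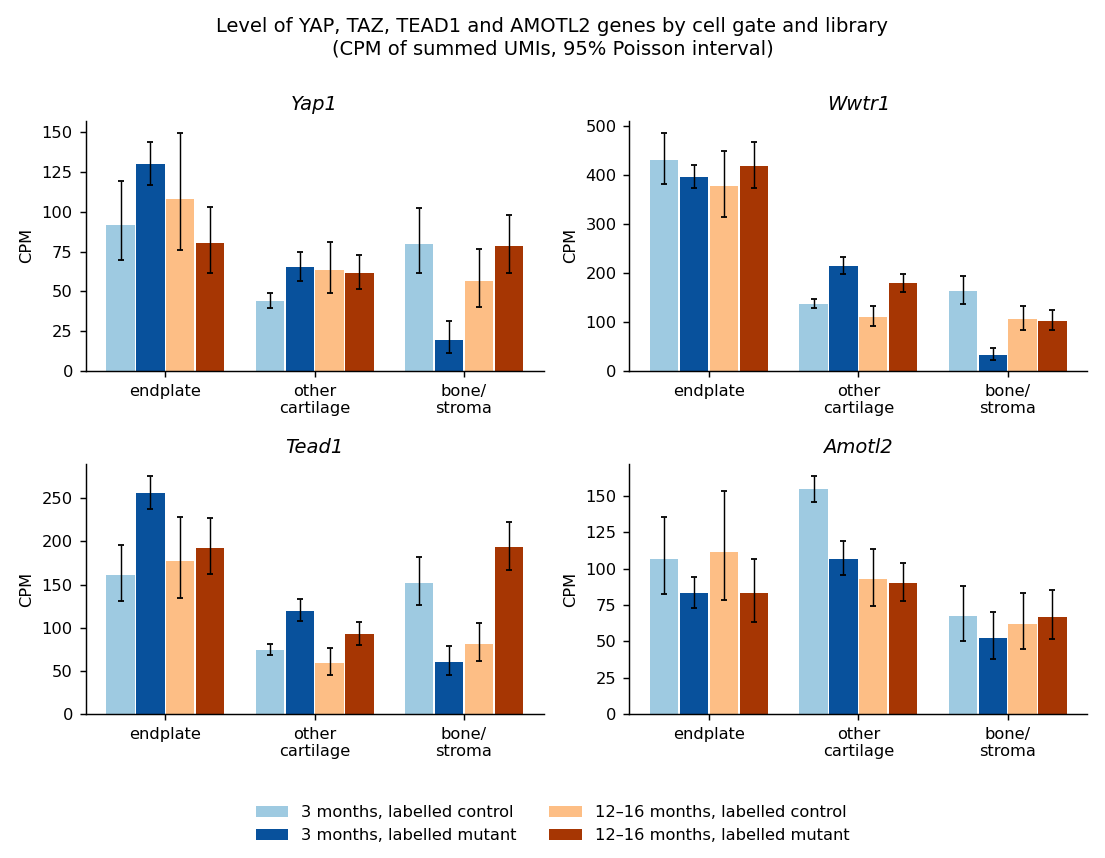
CPM of summed UMIs (vertical axis, from 0) of Amotl2, Yap1, Wwtr1 and Tead1 in the 3 gates, 1 bar for each of the 4 libraries, with 95% Poisson intervals. Wwtr1 and Tead1 stand higher in endplate than in other cartilage cells of every library, and the 3-month mutant bars of Yap1, Wwtr1 and Tead1 are the lowest in bone and stroma.

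Other genes of the pathway were read from lists that were written with earlier results of these data known. Of 17 Hippo kinases and brakes, 16 were tested in endplate cells at 3 months and 2 were past 2-fold, both higher under the mutant label (Nf2, which encodes merlin, and Ptpn14, a phosphatase that retains YAP in the cytoplasm). None of the 14 to 16 tested passed 2-fold in the 3 other cartilage comparisons, which were endplate at 12-16 months and other cartilage at both ages. Their median log2 ratios were 0.02 and -0.17 in endplate cells and 0.32 and 0.08 in other cartilage. Ptpn14 and Lats2 are also in the next list, of YAP and TAZ targets, so Ptpn14 is counted in both lists in endplate cells at 3 months. Of 22 other YAP and TAZ targets, 4 of 16 were higher and 0 lower in endplate cells at 3 months, with a median of 0.41. At 12-16 months 0 of 14 were higher and 2 lower, with a median of 0.06. In other cartilage 3 of 19 were higher and 2 lower at 3 months, and 3 of 17 higher and 1 lower at 12-16 months, with medians of 0.39 and 0.35. In bone and stroma, with the Ptprc cells of the gate included, 4 of 15 were higher and 4 lower at 3 months. At 12-16 months 7 of 16 were higher and 1 lower there. The background percentages of these comparisons are those given above for the members.

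Named here are genes of the lists past 2-fold in the same direction at both ages. The share of all genes that were so was not counted. In other cartilage, Tgfb2, a TGF-beta ligand, was higher under the mutant label by 3.58-fold (2.66 to 4.85) and 2.13-fold (1.21 to 4.01), from 10.2, 36.6, 15.1 and 32.1 CPM. Dock5 was higher by 3.30-fold (2.07 to 5.32) and 2.16-fold (0.80 to 7.28), the second with an interval that holds 1. Fstl1 was lower, with ratios of 0.44 (0.30 to 0.62) and 0.18 (0.06 to 0.46). Igfbp3, an IGF binding protein, was in bone and stroma 3.05-fold and 6.23-fold higher. The immediate early genes Atf3 and Klf4 were lower there at both ages. In that gate 10 of 21 immediate early genes were lower and 1 higher at 3 months, and 2 of 19 lower and 1 higher at 12-16 months. Over all genes 12.2% and 3.36% were lower. The 3-month values of this gate include the cells with Ptprc, and values of these genes without such cells are not given.

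Immediate early, SRF and TGF-beta response genes, whose factors can also drive CCN transcription, were counted in the same way. Over all genes, 10.8% were higher and 6.07% lower in endplate cells at 3 months, and 9.35% and 5.49% at 12-16 months. In other cartilage these shares were 4.68% and 5.22% at 3 months and 4.68% and 4.03% at 12-16 months. The medians over all genes were 0.03 and 0.03 in endplate cells and -0.00 and -0.03 in other cartilage. Of 22 immediate early genes, which include Fos, Jun and Egr1, 0 of 21 were higher and 5 lower in endplate cells at 3 months, with a median of -0.72, and 0 of 22 higher and 2 lower in other cartilage, with a median of -0.38. At 12-16 months 3 of 19 were higher and 1 lower in endplate cells, with a median of 0.35, and 0 of 21 higher and 1 lower in other cartilage, with a median of -0.37. The immediate early genes summed to 22806 CPM in the control and 13405 CPM in the mutant endplate cells at 3 months, and to 31604.5 and 23809.6 CPM in other cartilage. Fos alone went from 4632 to 2005 CPM and from 6555 to 4486 CPM. At 12-16 months the sums were 9592 CPM in the control and 11457 CPM in the mutant endplate cells, where Fos was 1.27-fold higher (1.14 to 1.41), and 26561.5 and 20486.6 CPM in other cartilage, where Fos was at 5205 and 3906 CPM. The direction in endplate cells was therefore not the same at the 2 ages. Of 11 SRF and actin genes, 1 of 7 was higher in endplate cells and 1 of 8 in other cartilage at 3 months, with 0 lower in both. At 12-16 months 2 of 6 were higher and 3 lower in endplate cells, with a median of -0.50, and 0 of 6 higher and 1 lower in other cartilage. Of 8 TGF-beta response genes, 3 of 7 were lower and 0 higher in endplate cells at 3 months, while 2 of 5 were higher and 0 lower at 12-16 months. In other cartilage 1 of 8 was higher and 1 lower at 3 months, and 0 higher and 2 lower at 12-16 months. In bone and stroma at 3 months, with Ptprc cells included, 0 of 9 SRF and actin genes were higher and 5 lower. Of 8 TGF-beta response genes there, 1 was higher and 5 lower. At 12-16 months 3 of 8 SRF and actin genes were higher and 0 lower, and 0 of 6 TGF-beta response genes passed 2-fold. Mural cells in the bone and stroma gate numbered 2, 0, 0 and 3. Mural markers (Acta2, Myh11, Rgs5, Tagln) summed there to 894, 11.6, 14.1 and 609 CPM, and Acta2 and Tagln are also in the SRF list. The part of mural cells in these counts was not tested. The shares of all genes in that gate were 23.9% higher and 12.2% lower at 3 months, and 14.9% and 3.36% at 12-16 months. Tead2, Tead3 and Tead4 were scarce, with 0 of at most 3 tested past 2-fold in the cartilage gates.

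The genes whose levels followed the CCN genes most closely were found by Pearson's r of log2(CPM + 10) over the 12 sums of gate and library, among 8210 genes. These 12 points share libraries and cell mixtures, so r is given as a description. They include the 3-month mutant bone and stroma sum, where 23 of 39 cells carried Ptprc, and r without that point was not computed. For Ccn2 the nearest genes were Frzb (r = 0.96), Agpat4 (0.96) and Npr2 (0.95), of which Frzb encodes a secreted WNT antagonist of cartilage and Npr2 the receptor for C-type natriuretic peptide. For Ccn1 they were Adamts1 (0.94), Fgfr1 (0.89) and Ctnna1 (0.87). Ccn4 had Ifitm5 (0.99), a gene of mineralising osteoblasts, Col13a1 (0.99) and Sh3pxd2b (0.98). Ccn5 had Fmnl2 (0.98), Serping1 (0.98) and St5 (0.98), and Ccn3 had Gdf5 (0.96), a growth factor of joint formation, Serpina3n (0.91) and Nos1 (0.89). Among the members, r was 0.47 between Ccn1 and Ccn2, 0.87 between Ccn4 and Ccn5, and -0.72 between Ccn2 and Ccn5. Ccn1 was closer to Yap1 (0.76), Tead1 (0.74) and Wwtr1 (0.70) than Ccn2 was (0.52, 0.29 and 0.63).

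Mural cells gave a small comparison outside the 3 gates. Ccn1 was at 203, 274, 0 and 250.3 CPM in them and Ccn2 at 283, 278, 30.4 and 211 CPM, where the 12-16-month control values rest on 2 cells.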

How the data were processed

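Single-cell libraries were made from poly(A) RNA of sorted tdTomato-positive spine cells with a 10x Genomics 3′ kit, and the authors deposited gene by cell matrices of UMI counts, whole numbers that were not normalised, from Cell Ranger 8.0.0 on mm10 per the submitters' processing notes. The study further corrected for ambient RNA and removed cell types before its own analysis; these steps were not applied here, so cell numbers and low levels differ from it. A cell was kept where its UMIs exceeded 750, its detected genes exceeded 500 and its mitochondrial share was under 7%. Gates were applied in the order endplate, other cartilage, bone and stroma, and UMIs were summed per library and gate and divided by the total of the same cells, as CPM. With 1 library per condition there was no test. Genes were called at 2-fold with at least 20 UMIs over the libraries compared, and a count of 0 was replaced by 3. Shares of cells were compared after thinning to 3000 UMIs by the hypergeometric formula. Scrublet, at an expected rate of 6%, marked 2, 4, 9 and 4 cells as doublets (control and mutant at 3 months, then control and mutant at 12-16 months); these were kept, and left out as an alternative.

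The members and all gene lists were chosen with earlier results of these data known. The named genes were the 10 members, list genes past 2-fold in the same direction at both ages, gate and marker genes, Nf1, and the 3 genes nearest in pattern to each of Ccn1 to Ccn5 among those with at least 300 UMIs; Fos was added after its values were seen, as were Nf2 and Ptpn14. Gene coordinates are those of GRCm38, the build of the deposited counts. The ratio and interval code was tested on simulated data. Alternatives were edgeR TMM factors, equal weight per cell, no cell filter, doublets left out, stricter gates, other cell types left out, the highest cell left out, a 1.5-fold threshold, no minimum of 20 UMIs and thinning to 1500 or 5000 UMIs. Python 3.11.15, scanpy 1.11.5, scipy 1.17.1, R 4.3.3 and edgeR 4.0.16 were used.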

Additional observations from a re-analysis of the deposited data

Results flagged for a closer look

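Genes whose ratio between labels, or between ages, pointed opposite ways in the groups compared were singled out, with the difference given as the log2 ratio of mutant over control at 12-16 months minus that at 3 months. With 1 library per condition none of these differences was tested. In endplate cells it was 1.07 for Ccn1, lower under the mutant label at 3 months and higher at 12-16 months. In other cartilage it was -1.14 for Ccn2, whose level was higher at 12-16 than at 3 months in the libraries labelled control and lower in those labelled mutant.

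The other 5 were in the bone and stroma gate, where 23 of 39 cells of the 3-month mutant library carried Ptprc. The differences were 4.65 for Ccn1, 2.24 for Ccn2, 2.69 for Ccn5, 2.30 for Wwtr1 and 2.57 for Tead1. For Ccn2, Ccn5 and Tead1 the 3-month ratio turned above 1 when cells of other types were left out, and for Ccn1 and Wwtr1 it stayed below 1.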

How the results depend on the processing

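Of the log2 ratios (mutant over control) of Ccn1 and Ccn2 under the alternatives, 74 of 116 stayed within the counting interval of the value reported, and 42 moved outside it; of those of the other members, or between ages or gates, 932 of 1069 stayed and 137 moved. The side of 1 changed in 4 of the 116, all outside the interval, and in 53 of the 1069, of which 19 lay outside it; values past 2-fold changed side in 1 and 9 of them. In endplate cells at 3 months, Ccn1 gave -0.33 with stricter gates, and Ccn2 gave 1.81 with cells weighted equally, 1.75 without the highest cell and 3.11 without Col10a1 or Ihh cells. At 12-16 months Ccn1 gave 2.82 with stricter gates and 0.32 without Col10a1 or Ihh cells, and Ccn2 gave 1.54 without doublets, 1.73 with stricter gates, 1.45 without the highest cell and 0.89 without Col10a1 or Ihh cells. In other cartilage at 3 months, Ccn1 gave 1.23 with stricter gates, -0.013 without Prg4, 1.21 with Prg4, 1.98 with Chrdl2 and 0.34 with Sfrp5. Ccn2 gave 1.20 with cells weighted equally, 1.37 with stricter gates, 1.80 without Prg4, 0.99 with Prg4, 0.98 with Chrdl2, 0.96 with Sfrp5 and 1.503 in Xist cells without Y-linked UMIs. At 12-16 months Ccn1 gave 0.48 with cells weighted equally, 0.46 with Prg4, 1.41 with Chrdl2 and 2.09 with Sfrp5, and Ccn2 gave 0.20 with TMM factors, 0.29 with cells weighted equally, 0.22 without the highest cell, 0.75 without Prg4, 0.75 with Chrdl2, 1.09 with Sfrp5 and -0.22 in Xist cells without Y-linked UMIs, where Ccn3 gave -0.44.

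For bone and stroma at 3 months, Ccn1 gave -2.58 with cells weighted equally and -1.75 without other cell types; Ccn2 gave -0.20, 0.76 (turned) and, in Xist cells, -1.09. Yap1, Tead1, Ccn5 and Amotl2 turned to 0.12, 0.68, 1.49 and 1.20 without other cell types. At 12-16 months Ccn1 gave 0.24 with cells weighted equally, and Ccn2 gave 0.53 with TMM factors, -0.0062 with cells weighted equally and 1.25 in Xist cells, where Wwtr1 gave 0.58. Between ages under the mutant label, Ccn2 turned to -0.093 with cells weighted equally and, without other cell types, Ccn2 turned to -0.96, Ccn5 to -0.41, Amotl2 to -1.05, Wwtr1 to -0.27 and Tead1 to -0.23. Bone and stroma over other cartilage in the 3-month mutant library turned to 0.54 for Amotl2, 0.40 for Yap1 and 1.04 for Tead1 without other cell types. Of endplate over other cartilage, Ccn1 turned to -1.60 in the 12-16-month control library with stricter gates and Ccn2 to -0.011 in the 3-month control library with cells weighted equally. The cause of these changes was not tested, beyond what each subset leaves out.

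Members called higher in endplate cells went from 1 to 2 at 1.5-fold at both ages, and at 12-16 months to 2 with stricter gates or without the highest cell and to 0 without Col10a1 or Ihh cells. In other cartilage at 3 months they went from 1 to 2 with stricter gates and in Xist cells, to 4 at 1.5-fold and to 0 with Sfrp5, and those called lower from 1 to 0 without Prg4 or with Sfrp5 and to 2 with Prg4 or with Chrdl2. At 12-16 months those called higher went from 0 to 1 with cells weighted equally, without the highest cell or with Chrdl2, to 2 without Prg4, to 3 at 1.5-fold and to 4 with Sfrp5, and those called lower from 0 to 1 under 7 alternatives (equal weights, no cell filter, stricter gates, highest cell left out, with Prg4, Xist cells, 1.5-fold). Fewer members reached 20 UMIs in the smaller subsets. The share of all genes called was counted for the main setting at 2-fold only. The counts under alternatives therefore have no such share beside them and are given as description. In bone and stroma at 3 months the members called lower went from 6 to 2 with cells weighted equally to 1 without other cell types, with 2 called higher, and to 7 with TMM factors, without the highest cell or at 1.5-fold; at 12-16 months those called higher went from 2 to 1 with TMM factors, to 3 in Xist cells and to 4 at 1.5-fold, and those lower from 1 to 0 with no cell filter. The subsets by Col10a1 or Ihh, Prg4, Chrdl2, Sfrp5 and Xist were chosen after seeing the data. No paired analysis was possible because the groups compared at an age held 1 library each and so shared fewer than 2 replicate numbers; the ages were not treated as pairs. Counting limits were widest in the 12-16-month control library, with 12 endplate and 26 bone and stroma cells.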
